A study of Homo sapiens with 12 samples.

Results

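Heat shock chaperones of the cytosol were examined through 10 genes, chosen by name and matched by symbol to the Ensembl identifiers of the expression tables. They were HSPA1A, HSPA1B, HSPA8, HSPH1, HSP90AA1, HSP90AB1, DNAJB1, HSPB1, BAG3 and HSF1, which make up 10 of the 62703 identifiers. The cells were HK2, an immortalised line derived from human proximal tubule, and each of the 4 groups holds 3 of the 12 libraries. NG cells grew in 5.5 mM glucose and received a control vector, and HG cells grew in 50 mM glucose. The si-FGF9 cells grew in 5.5 mM glucose and received an siRNA against FGF9, a fibroblast growth factor. The HG+OE-FGF9 cells grew in 50 mM glucose and received a viral vector that overexpresses FGF9, a lentivirus in the labels and methods and an adenovirus elsewhere in the text of the paper. A control vector is named for NG alone and no non-targeting siRNA is described. All 3 comparisons may therefore also set cells with a vector or siRNA against cells with another or none, which cannot be told apart from the treatments. No duration of the treatments is given. The text of the paper also names mannitol for the NG medium, which the labels do not. All groups come from the same cell line, and nothing says that the 3 libraries of a group are separate cultures, so the p-values measure the spread between these libraries, which may be technical. Values are TPM (transcripts per 1000000 transcripts, a level per transcript length), which keep no record of sequencing depth.

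Heat shock proteins are chaperones: they bind unfolded or partly folded proteins and either hold them or help them to fold. HSP70 proteins bind short stretches of a client in cycles of ATP hydrolysis, which J-domain proteins start and nucleotide exchange factors end. HSP90 proteins act later on clients such as kinases and steroid receptors. HSF1 is the transcription factor that raises many of these genes when unfolded proteins build up, and chaperones in turn hold HSF1 inactive. In the kidney, heat shock proteins are best known from ischaemic and osmotic stress of the tubule.

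HSF1 binds the heat shock element, a row of short units with GAA or its reverse complement TTC at the core, placed in alternating direction with 2 bases between cores. Promoters of the RefSeq table (GRCh38.p14) were available for 9 of the 10 genes, with 14 starts in all, and the 250 bases before each start were searched. A row of 3 cores, GAANNTTCNNGAA or TTCNNGAANNTTC, which covers both strands, was present in 155 of 35116 promoters (0.441%) and in promoters of 3 of these genes, HSPA8, HSP90AA1 and HSP90AB1. A pair of cores, GAANNTTC or TTCNNGAA, is part of every such row and was present in 11.6% of the promoters and for 7 of these genes. Each gene with a match has it at a single start, so by promoter the counts are 3 and 7 of 14. Each match is given in 30 bases, read 5′ to 3′ along the gene, with the matched letters in capitals, because the element is the sequence feature by which these genes are known as a group. A second HSP90AA1 pair is left out.
HSPA1A, chr6:31815426-31815455, plus strand: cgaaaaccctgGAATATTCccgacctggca
HSPA1B, chr6:31827622-31827651, plus strand: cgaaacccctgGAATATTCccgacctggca
DNAJB1, chr19:14518456-14518485, minus strand: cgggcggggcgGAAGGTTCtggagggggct
DNAJB1, chr19:14518426-14518455, minus strand: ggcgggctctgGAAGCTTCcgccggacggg
HSPB1, chr7:76302480-76302509, plus strand: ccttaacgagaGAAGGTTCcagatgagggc
HSPA8, chr11:123062346-123062375, minus strand: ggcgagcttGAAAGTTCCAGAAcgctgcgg
HSPA8, chr11:123062171-123062200, minus strand: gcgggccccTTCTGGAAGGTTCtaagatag
HSP90AA1, chr14:102087112-102087141, minus strand: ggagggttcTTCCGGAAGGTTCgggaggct
HSP90AB1, chr6:44247769-44247798, plus strand: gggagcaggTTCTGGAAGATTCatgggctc
HSP90AB1, chr6:44247822-44247851, plus strand: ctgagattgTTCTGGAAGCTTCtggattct
The match of HSPA1A lies 106 to 99 bases before the start and that of HSPA1B 105 to 98 bases before it. Over the 120 bases before their starts, the promoters of HSPA1A and HSPA1B were identical at 111 of 119 aligned positions (93.3%). The row of HSPA8 nearest to the start lies 55 to 43 bases before it. The HSP90AA1 row belongs to the inner start of the gene, and the HSP90AB1 rows to the start farthest downstream of those listed. No match in HSPH1 and BAG3 says only that these letters are not in this window.

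Before the genes themselves, the libraries were checked. FGF9 was listed at 0 TPM in 9 libraries, those of NG, HG and si-FGF9, and at 3.34, 4.03 and 3.82 TPM in HG+OE-FGF9. The overexpression was therefore visible in the levels, while a knockdown could not be seen from a gene listed at 0 in its controls. FGF9 reached 1 TPM in HG+OE-FGF9 alone, so its log2 fold change against HG, 2.24, is given without a test. Of 10 proximal tubule markers 5 reached 1 TPM in some library, among them GGT1 at 71.7 to 195 TPM and PAX8 at 19.7 to 79.1 TPM, while LRP2, CUBN, SLC34A1 and SLC22A6, the transport genes that define this tubule, stayed at or near 0. Of the epithelial markers, keratins KRT8, KRT18 and KRT19 lay between 211 and 678 TPM. EPCAM lay between 3.95 and 31.3 TPM, and CDH1, the gene of E-cadherin, stayed at 0 to 0.28 TPM. Among markers of other cells, all 3 endothelial genes and PTPRC stayed under 1 TPM, and CD68 lay between 108 and 159 TPM. Of 4 fibroblast markers 3 reached 1 TPM, and their summed level was 62.2 to 89.2 TPM in NG, mostly from LUM, against 17.1 to 40.8 in HG, 11.6 to 21.0 in si-FGF9 and 11.5 to 22.4 in HG+OE-FGF9. In such bulk samples fewer cells of a type and less RNA per cell cannot be told apart.

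Some libraries stood apart from the others of their group. Of the 14639 genes tested, those with at least 1 TPM in 3 or more libraries, 15.7% differed by at least 1 on the log2 scale between HG replicate 3 and the mean of the other 2 HG libraries. This share was 10.1% for HG replicate 2, 8.31% for HG+OE-FGF9 replicate 3, 3.69% for si-FGF9 replicate 3 and 1.23% to 2.05% for the other libraries. Across these genes HG replicate 3 was nearer to NG replicate 3 (SD of the log2 differences 0.632) than to HG replicate 1 (0.675) or HG replicate 2 (0.834). Whether this library is what its label says is therefore in doubt, and the HG means, intervals and calls include it unless its omission is stated. HG+OE-FGF9 replicate 3 was likewise nearer to HG replicates 1 and 2 (0.5875 and 0.633) than to its own partners (0.642 and 0.653). FGF9 was at 3.82 TPM in that library, and the HG+OE-FGF9 results include it unless its omission is stated. Fold changes in this series also follow the GC content of the genes. Each fold change was therefore computed again after a GC correction, which removes from each library its trend with GC content. With it, the share of genes differing by at least 1 was 9.88% for HG replicate 3 and 3.21% for HG replicate 2. For HG+OE-FGF9 replicate 3 it was 5.715%, and for si-FGF9 replicate 3 it was 2.86%. The SDs between libraries given above were not corrected. HSPH1 had the lowest GC content of the 10 (39.95%) and HSF1 the highest (64.7%). The comparisons, in this order throughout, were HG versus NG, then si-FGF9 versus NG, then HG+OE-FGF9 versus HG. Their median log2 fold changes over all genes were −0.39, −0.79 and −0.13, and a median-of-ratios scaling moved these to 0.011, 0 and −0.0048.

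The 10 genes were expressed in every library, at 10.3 TPM or more. Together they took 0.35% to 0.69% of all TPM in a library. HSPB1 had the highest mean over the 12 libraries (2420 TPM), followed by HSP90AB1 (568), HSPA8 (499) and HSP90AA1 (429), then HSPA1A (238), HSPA1B (193), DNAJB1 (186) and HSPH1 (95.0), with HSF1 (42.4) and BAG3 (19.6) last. This order differed between groups. In NG the mean of HSP90AA1 (832 TPM) was above that of HSPA8 (557 TPM), and in si-FGF9 the mean of HSPA8 (680 TPM) was above those of HSP90AB1 (326 TPM) and HSP90AA1 (318 TPM).

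**Figure D1:**
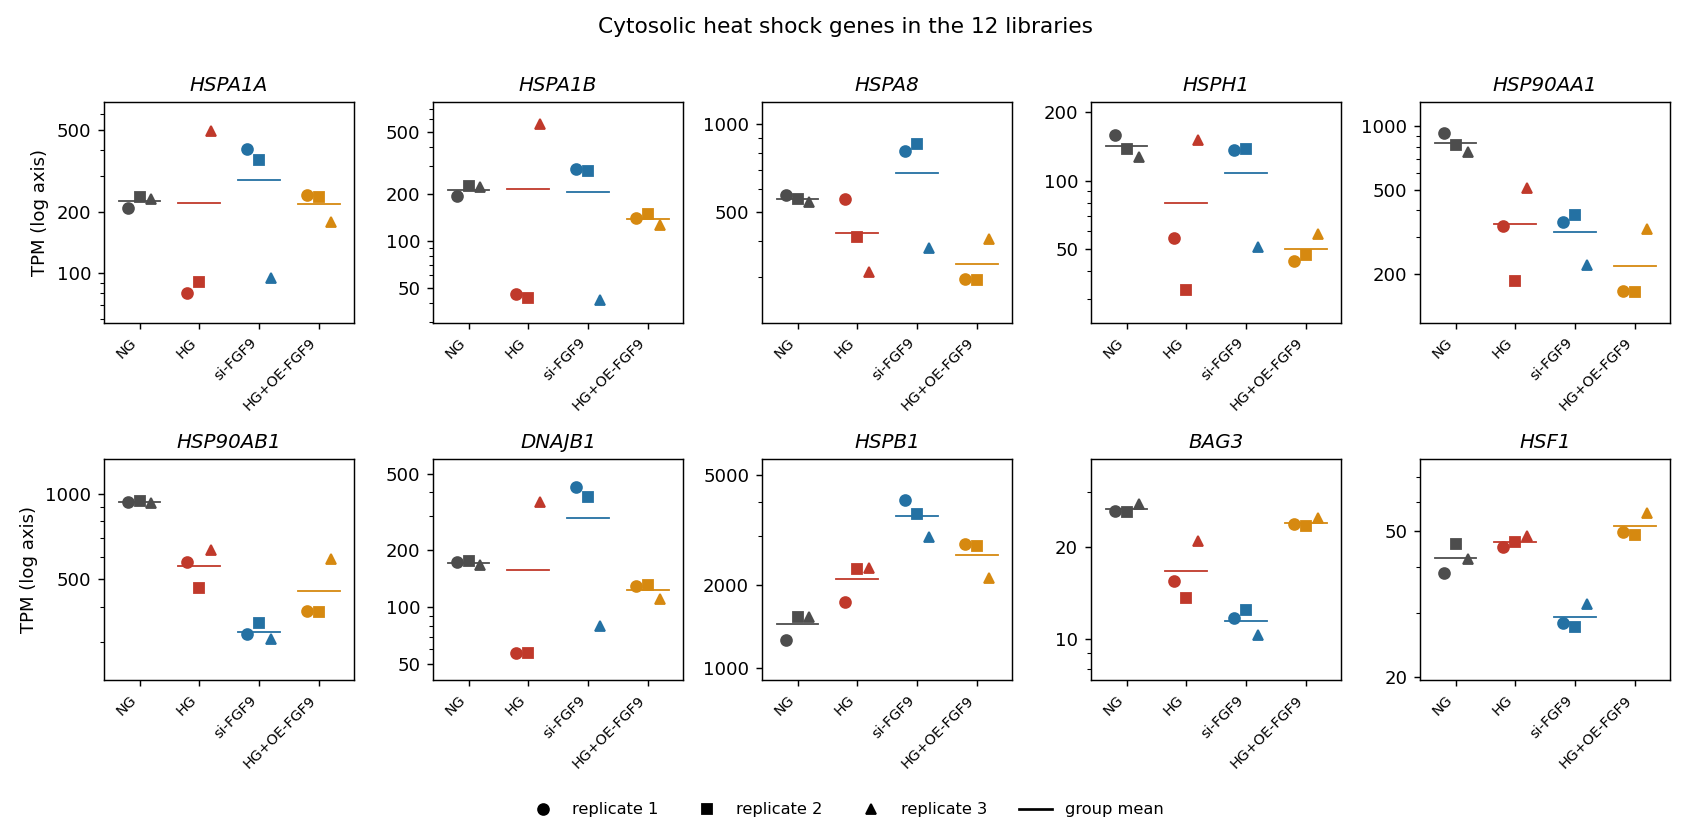
TPM of the 10 heat shock genes on a log axis in each library, by group (NG, HG, si-FGF9, HG+OE-FGF9), with the replicate as the symbol and the mean of 3 libraries as a line. For HSPA1A, HSPA1B, DNAJB1 and HSPH1, HG replicate 3 lies above the other HG libraries and si-FGF9 replicate 3 below the other si-FGF9 libraries, whereas HSP90AB1, HSPB1, BAG3 and HSF1 are tighter within groups.

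The stress-inducible HSP70 genes, HSPA1A and HSPA1B, varied several-fold between the libraries of HG and of si-FGF9, and less within NG and HG+OE-FGF9, and no group difference was called. They are neighbouring genes of chromosome 6 (HSPA1A from 31815464 to 31817946, HSPA1B from 31827735 to 31830255, GRCh38) that encode nearly the same protein. In NG HSPA1A was at 208, 237 and 231 TPM in replicates 1, 2 and 3. In HG it was at 80.1, 90.6 and 494 TPM, and in si-FGF9 at 404, 357 and 95.2 TPM. In HG+OE-FGF9 it was at 241, 236 and 179 TPM. HG replicate 3 had the highest level of the 12 libraries and the other 2 HG libraries the lowest levels, so NG and HG+OE-FGF9 fell inside the range of HG. The mean was 225 ± 15.4 TPM (SD, n = 3) in NG and 222 ± 236 TPM in HG.

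HSPA1B had the same high and low libraries in HG and si-FGF9, with a wider range. It was at 193, 226 and 221 TPM in NG and at 45.5, 43.3 and 558 TPM in HG. In si-FGF9 it was at 291, 281 and 41.7 TPM, and in HG+OE-FGF9 at 141, 149 and 125 TPM. Its lowest and highest HG libraries differed 12.9-fold, against 1.17-fold in NG and 1.19-fold in HG+OE-FGF9. Neither gene was called in any of the 3 comparisons (limma adjusted p of 0.502, 0.908 and 0.628 for HSPA1A and of 0.36, 0.639 and 0.785 for HSPA1B). A gene was called when its fold change, up or down, reached 1 on the log2(TPM + 1) scale with p under 0.01 before adjustment, as in the criteria of the study. The intervals were wide. For HSPA1A in HG versus NG the log2 fold change was −0.55, with a 95% confidence interval from −1.93 to 0.83, and for HSPA1B in HG versus NG the log2 fold change was −1.03, with a 95% confidence interval from −2.96 to 0.90.

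The transcripts of these neighbours share much of their sequence, and 1766 of the 2434 windows of 50 bases in the HSPA1A transcript (72.6%) also occur in HSPA1B. How reads were split between them by the authors' counting is not known, so each value alone is uncertain. The ratio of HSPA1B to HSPA1A was 0.93 to 0.96 in NG and 0.58 to 0.70 in HG+OE-FGF9. It was 0.57, 0.48 and 1.13 in HG, whereas si-FGF9 had 0.72, 0.79 and 0.44. Whether reads that match both genes were counted at all is not known either. The summed level of the genes does not depend on how the counted reads were split between them. It was 401 to 463 TPM in NG and 126, 134 and 1052 TPM in HG. It was 695, 638 and 137 TPM in si-FGF9 and 304 to 385 TPM in HG+OE-FGF9. The sum thus kept the pattern of the single genes, with HG replicate 3 high and si-FGF9 replicate 3 low.

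DNAJB1, the J-domain protein that starts the ATP cycle of HSP70 and is itself a heat shock gene, moved between libraries in the same way. It lies on chromosome 19 (14514770 to 14529770). It was at 173, 173 and 166 TPM in NG and at 57.7, 57.8 and 353 TPM in HG. It was at 425, 375 and 79.2 TPM in si-FGF9 and at 129.5, 130.4 and 110.2 TPM in HG+OE-FGF9. Again HG replicate 3 stood above every NG library and the other HG libraries stood below them, and si-FGF9 replicate 3 stood below every NG library while its partners stood above. No comparison called DNAJB1 (limma adjusted p of 0.434, 0.575 and 0.857).

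HSPH1, an HSP110 protein that exchanges nucleotide on HSP70 (chromosome 13, 31134974 to 31162388), had the same high and low libraries in HG and si-FGF9. Its levels were 159.6, 138 and 127 TPM in NG, 55.8, 33.1 and 151 TPM in HG and 137, 138 and 51.0 TPM in si-FGF9. In HG+OE-FGF9 it was at 44.4, 47.1 and 58.5 TPM, below every NG library. HG versus NG gave a log2 fold change of −1.10 ± 0.48 (SE) and an adjusted p of 0.0752, so HSPH1 was not called. GC correction reduced this difference to −0.06 ± 0.33. The direction against NG turned with the correction in si-FGF9, from −0.51 ± 0.48 to 1.06 ± 0.33 (adjusted p = 0.0177), which made it a call. HSPH1 has the lowest GC content of the 10 genes.

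The size of these library differences was set beside that of all genes. In HG replicate 3, HSPA1B was 3.62 higher on the log2(TPM + 1) scale than the mean of the other 2 HG libraries, at percentile 99.9 of the genes tested. DNAJB1 was 2.59 higher (percentile 99.7), HSPA1A 2.52 higher (percentile 99.6) and HSPH1 1.79 higher (percentile 98.5). In si-FGF9 replicate 3, HSPA1B differed by −2.75 from the mean of its partners (percentile 0.103). DNAJB1 there differed by −2.32 (percentile 0.205), HSPA1A by −1.99 (percentile 0.335), HSPH1 by −1.41 (percentile 0.854) and HSPA8 by −1.14 (percentile 1.75). After GC correction HSPA1B still differed by 3.84 in HG replicate 3 and by −2.89 in si-FGF9 replicate 3, and DNAJB1 by 2.66 and −2.36. These positions describe single libraries and carry no test. The summed fibroblast markers were also highest in HG replicate 3 within HG (40.8 TPM against 34.96 and 17.1) and lowest in si-FGF9 replicate 3 within si-FGF9 (11.6 TPM against 18.4 and 21.0). They come mainly from LUM, PDGFRB stayed under 1 TPM, and their part in the result was not tested. PTPRC and the endothelial genes were at or near 0 in these libraries too.

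**Figure D2:**
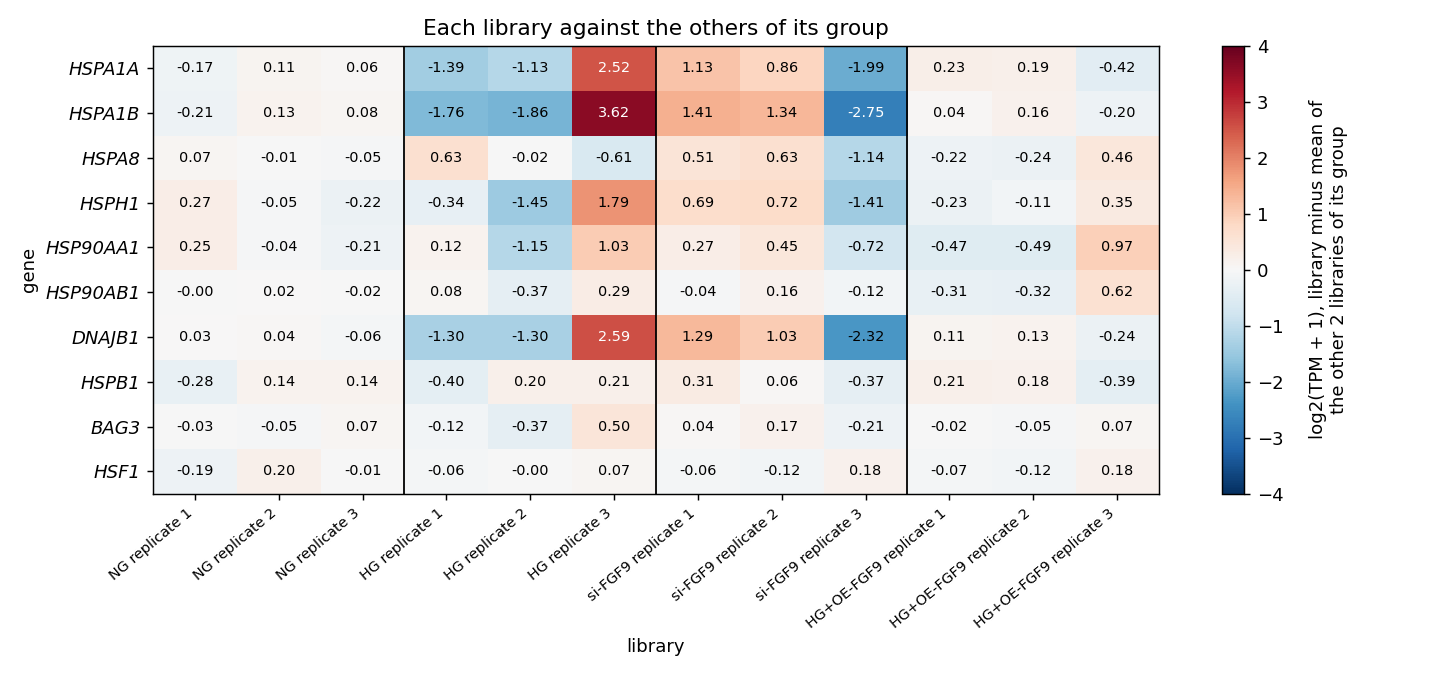
Difference in log2(TPM + 1) between each library and the mean of the other 2 libraries of its group, for the 10 heat shock genes (rows) and 12 libraries (columns), with red for higher and blue for lower. The darkest cells are HSPA1B, DNAJB1 and HSPA1A in HG replicate 3 (3.62, 2.59 and 2.52) and in si-FGF9 replicate 3 (−2.75, −2.32 and −1.99), while the NG columns stay within 0.28 of 0.

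HSPA8, the constitutive HSP70 of the cytosol (chromosome 11, 123057489 to 123063230), did not follow the inducible genes in HG. It was at 574, 554 and 543 TPM in NG, 555, 411 and 313 TPM in HG, 809.6, 854 and 377 TPM in si-FGF9 and 297, 294 and 406 TPM in HG+OE-FGF9. The library that was highest for HSPA1B in HG was the lowest for HSPA8, whereas si-FGF9 replicate 3 was low for both. All 3 HG+OE-FGF9 values lay below the NG values. HSPA8 was not called in any comparison (log2 fold changes of −0.42, 0.20 and −0.34, each with an SE of 0.29). It was called higher in si-FGF9 than in NG once GC content was corrected for, at 1.04 ± 0.27 (adjusted p = 0.0062), and with the median-of-ratios scaling, at 1.25 (adjusted p = 0.002), while the difference of HG from NG became 0.05 and 0.10. Of its 50-base windows 15.4% occur in other genes, most often the pseudogene HSPA8P1, and reads from them may be split.

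Both HSP90 genes of the cytosol were lower in all 9 libraries outside NG than in any NG library. Of the 14639 genes tested, 6813 in HG and 9088 in si-FGF9 were also lower than NG without overlap. No such count was made over all 9 libraries. HSP90AA1, the stress-responsive form (chromosome 14, 102080738 to 102139699), was at 932, 812 and 752 TPM in NG and at 337, 186 and 512 TPM in HG. It was at 351.5, 381 and 222 TPM in si-FGF9 and at 167, 165 and 326 TPM in HG+OE-FGF9. In HSP90AA1 the 3 groups other than NG overlapped each other. The gene was called lower in HG versus NG, with a log2 fold change of −1.38 ± 0.35 (SE, limma adjusted p = 0.0076), and in the second comparison, with −1.42 ± 0.35 (adjusted p = 0.00335). The third comparison gave −0.61 (adjusted p = 0.273) and no call. The calls depended on the processing. GC correction left −0.77 (adjusted p = 0.0412) and −0.41 (adjusted p = 0.195), and the median-of-ratios scaling −0.85 (adjusted p = 0.027) and −0.37 (adjusted p = 0.262), none of them called. Without HG replicate 2 the difference of HG from NG was −0.99. Without si-FGF9 replicate 3 that of si-FGF9 was −1.18 with an adjusted p of 0.0177. Each of these ended the call it bears on.

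HSP90AB1, the constitutive HSP90 (chromosome 6, 44246166 to 44253888), had the tightest NG values of the 10 genes. It was at 935, 946 and 930.2 TPM in NG, 576, 466 and 632 TPM in HG, 319.9, 350.2 and 307 TPM in si-FGF9 and 384, 382 and 591 TPM in HG+OE-FGF9. The order of the group means was NG, HG, HG+OE-FGF9 and si-FGF9. NG did not overlap HG, and si-FGF9 did not overlap any group, while HG and HG+OE-FGF9 overlapped. Against NG it was called lower in si-FGF9, with −1.52 ± 0.17 (SE, adjusted p = 1.62e-05). In HG the log2 fold change was −0.76 ± 0.17 with an adjusted p of 0.0039, short of the fold minimum. GC correction left −0.76 ± 0.12 in si-FGF9 (adjusted p = 0.000227) and −0.35 ± 0.12 in HG (adjusted p = 0.0409), and the median-of-ratios scaling left −0.47 in si-FGF9 (adjusted p = 0.00296), lower in each case but under the fold minimum. The ratio of HSP90AA1 to HSP90AB1 was 0.81 to 1.00 in NG, 0.40 to 0.81 in HG, 0.72 to 1.10 in si-FGF9 and 0.43 to 0.55 in HG+OE-FGF9. Windows shared with other genes, mainly pseudogenes, made up 17.5% of HSP90AA1 and 18.8% of HSP90AB1.

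HSPB1, the small heat shock protein HSP27 that holds unfolded clients without ATP (chromosome 7, 76302544 to 76304295), was the member of the group that was called higher. It was at 1261, 1533 and 1535 TPM in NG and at 1737, 2288 and 2300.1 TPM in HG. It was at 4081, 3622 and 2977 TPM in si-FGF9 and at 2809, 2773 and 2128 TPM in HG+OE-FGF9. All 9 libraries outside NG lay above NG, si-FGF9 lay above every other group, and HG and HG+OE-FGF9 overlapped. Of the 14639 genes tested, 1567 in HG and 2099 in si-FGF9 were also higher than NG without overlap. Against NG the log2 fold change of HSPB1 was 1.30 ± 0.16 (SE, adjusted p = 3.17e-05) in si-FGF9, a called difference, and 0.54 ± 0.16 (adjusted p = 0.0173) in HG, under the fold minimum. GC correction kept the call in si-FGF9, at 1.04 ± 0.18 (adjusted p = 0.000558), and reduced HG to 0.23 (adjusted p = 0.362). Correcting for length as well left 0.70 in si-FGF9 (adjusted p = 0.00743), no longer past the fold minimum. With the median-of-ratios scaling HSPB1 was called higher in HG too, at 1.07 (adjusted p = 0.00486). The GC content of HSPB1 is 64.3%.

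BAG3, a nucleotide exchange factor of HSP70 that also links it to small heat shock proteins and to autophagy (chromosome 10, 119651370 to 119677819), had the lowest level of the genes. It was at 26.2, 25.9 and 27.4 TPM in NG, 15.4, 13.7 and 20.9 TPM in HG, 11.7, 12.4 and 10.3 TPM in si-FGF9 and 23.6, 23.3 and 24.7 TPM in HG+OE-FGF9. No pair of groups overlapped, in the order NG, HG+OE-FGF9, HG and si-FGF9. Separation of all 4 groups was not counted over all genes. In the single comparisons 57.2%, 76.4% and 22.1% of all genes had groups without overlap. BAG3 was called lower in si-FGF9 than in NG, with −1.14 ± 0.16 (SE, adjusted p = 6.68e-05). Between HG and NG it was −0.66 ± 0.16 (adjusted p = 0.00629), under the fold minimum. From HG to HG+OE-FGF9 it was 0.51 ± 0.16, with an unadjusted p of 0.0084 in limma and an adjusted p of 0.0683. GC correction gave −0.91 (adjusted p = 0.00114), −0.66 (adjusted p = 0.0166) and 0.45 (adjusted p = 0.0992) for these 3 differences. The first of them became −0.15 (adjusted p = 0.37) with the median-of-ratios scaling and −0.30 with quantile normalization, so its call was lost under all 3.

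HSF1, the transcription factor upstream of the heat shock genes, lies on chromosome 8. Its levels were 38.5, 46.2 and 42.0 TPM in NG, 45.4, 46.7 and 48.3 TPM in HG, 28.2, 27.4 and 31.7 TPM in si-FGF9 and 49.8, 48.7 and 56.0 TPM in HG+OE-FGF9. The si-FGF9 libraries lay below all others, HG+OE-FGF9 lay above all others, and NG and HG overlapped. How many of all genes have such an order was not counted. No comparison called HSF1. The log2 fold change was −0.52 ± 0.13 (SE, adjusted p = 0.00307) between si-FGF9 and NG, 0.15 ± 0.13 between HG and NG and 0.13 ± 0.13 between HG+OE-FGF9 and HG. The direction of the first turned with the scaling, to 0.50 with median-of-ratios scaling and 0.15 with quantile normalization, and it was −0.81 after GC correction. That of the second turned with GC correction, to −0.18. The HG replicate 3 and si-FGF9 replicate 3 libraries that stood out for HSPA1B differed by 0.07 and 0.18 from their partners in HSF1, which says nothing of the activity of its protein.

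Over the 10 genes, 1 was called in HG versus NG (HSP90AA1, lower), beside 24.4% of all genes tested. The second comparison called 4, HSP90AA1, HSP90AB1 and BAG3 lower and HSPB1 higher, beside 47.6% of all genes. In the third, limma called 0 of the 10, beside 5.61% of all genes, and 1, BAG3, had an unadjusted p under 0.05. The share of all genes at an unadjusted p under 0.05 alone was not computed. Nothing is therefore read from this or later counts at that cut. At an adjusted p under 0.05 without a fold minimum, the counts were 4, 5 and 0 of 10, beside 49.0%, 69.3% and 9.53% of all genes. The shares among the 10 genes were thus near or under those among all genes. Groups did not overlap for 4, 5 and 2 of the 10 genes, beside 57.2%, 76.4% and 22.1% of all genes, so these shares too were near or under the background. Separations of other or more groups, given above for single genes, were not counted over all genes. The first and second comparisons share the NG libraries, and the first and the third share the HG libraries.

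After GC correction limma called 0, 3 and 0 of the 10 genes, beside 6.84%, 24.3% and 5.21% of all genes, and 3, 6 and 2 had an unadjusted p under 0.05. The 3 called in the second comparison were then HSPA8, HSPH1 and HSPB1, all higher. With the median-of-ratios scaling the calls were HSPB1 in the first comparison and HSPA8 and HSPB1 in the second, all higher, beside 15.7% and 36.7% of all genes, where the calls of all genes went from 242 higher and 3328 lower to 1088 and 1211, and from 785 and 6181 to 2812 and 2557. In the third comparison no member was called, and the split of all calls went from 430 higher and 391 lower to 533 and 261. The median log2 fold change of the 10 genes was −0.67, −0.50 and 0.17 as deposited, and −0.43, −0.11 and 0.12 after the correction.

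**Figure D3:**
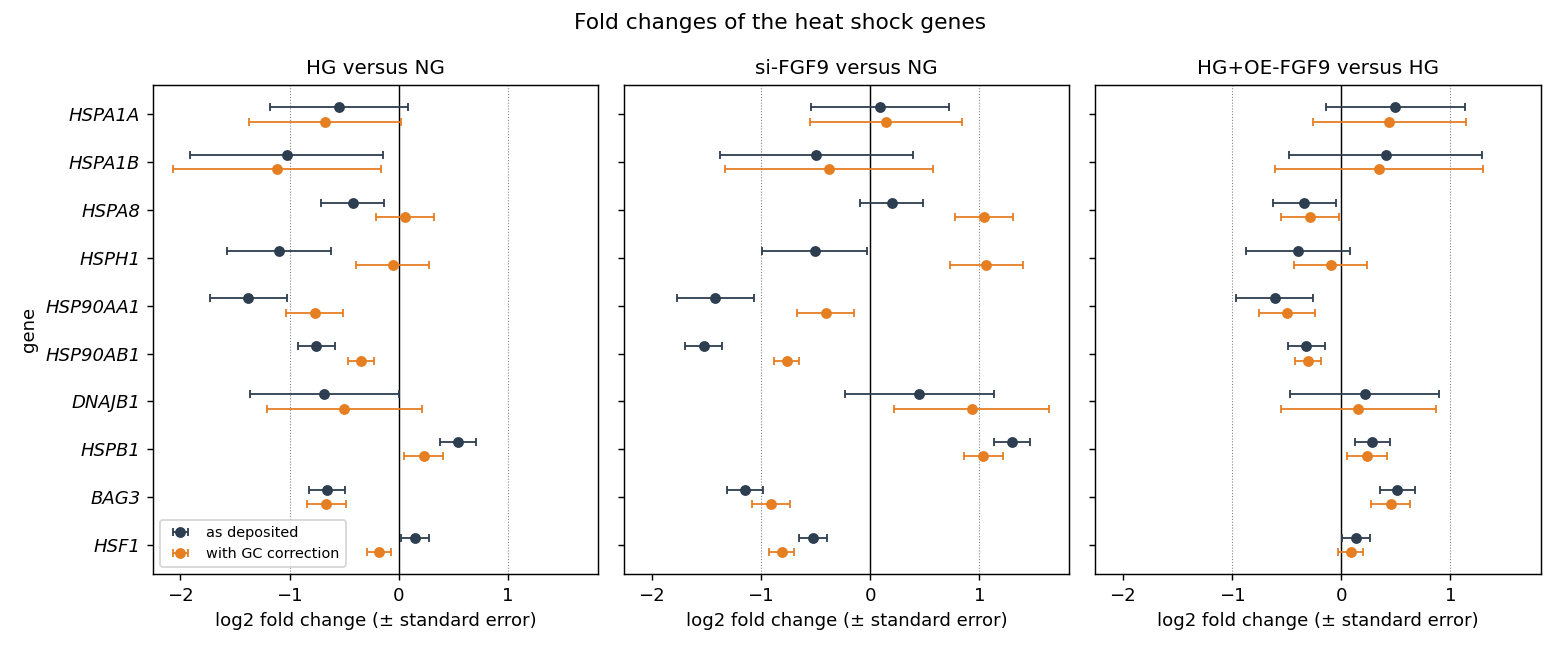
Log2 fold change on the log2(TPM + 1) scale with its standard error for each gene in the 3 comparisons, as deposited (dark) and with the GC correction (orange), with dotted lines at −1 and 1. The bars of HSPA1A, HSPA1B and DNAJB1 are the longest, HSPH1 moves from −0.51 to 1.06 in the middle panel, and HSPB1 stays above 1 there.

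The libraries that stood apart decided several of these results. Without HG replicate 3, HG versus NG called 3 of the 10 genes, HSPA1B (−2.24), HSPH1 (−1.69) and HSP90AA1 (−1.72), beside 32.4% of all genes. HSPA1A was then −1.39 and DNAJB1 −1.55, neither called. Without HG replicate 2 limma called 0 there, beside 15.3% of all genes, and 4 had an unadjusted p under 0.05. Without si-FGF9 replicate 3 the second comparison called 3, beside 46.1%, and HSPA1B turned from −0.49 to 0.42. Leaving out both HG replicate 3 and si-FGF9 replicate 3, limma called 5, 5 and 3 genes, beside 32.6%, 47.1% and 6.80% of all genes. HG replicate 3 and si-FGF9 replicate 3 were singled out on values that include these genes, so leaving out either or both narrows the spread by construction, and nothing is read from the calls gained that way.

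Genes of the wider chaperone network were taken from 8 lists, of which 52 genes were tested. In HG versus NG 14 of the 52 were called, all lower, beside 24.4% of all genes, and 9 without NG replicate 1 (beside 20.4%) or 8 without HG replicate 2 (beside 15.3%). The second comparison called 27, 25 lower and 2 higher, beside 47.6%. The third called 1, HSPA6, beside 5.61%. It called 2 without HG replicate 2 or HG replicate 3 (beside 9.29% and 6.77%) and 3 without HG+OE-FGF9 replicate 3 (beside 1617 of the 14639 genes). GC correction brought the counts to 3, 12 and 1, beside 6.84%, 24.3% and 5.21% of all genes, and the 12 were then 6 higher and 6 lower. With the median-of-ratios scaling the counts were 9 (3 higher and 6 lower), 24 (13 higher and 11 lower) and 1, beside 15.7%, 36.7% and 5.42%. Nothing is read from these counts about the network as a whole.

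HSPA6, a strictly inducible HSP70, had the same high and low libraries as HSPA1B within HG and within si-FGF9. It was at 22.2, 20.4 and 19.6 TPM in NG, 0.63, 0.90 and 25.6 TPM in HG, 15.9, 11.3 and 1.21 TPM in si-FGF9 and 116, 111 and 56.6 TPM in HG+OE-FGF9. The HG+OE-FGF9 libraries lay above all others, an order that was not counted over all genes. Against HG the log2 fold change of HSPA6 in HG+OE-FGF9 was 4.39 ± 0.95 (SE, adjusted p = 0.0153), and 4.33 after GC correction. In HG replicate 3 HSPA6 was 3.92 higher than in its partners (percentile 99.9), and in si-FGF9 replicate 3 it differed by −2.71 (percentile 0.116). Across the lists, 9 of the 52 genes were at least 1 higher on the log2 scale in HG replicate 3 than in its partners and 1 was at least 1 lower, beside 11.2% and 4.58% of all genes. In si-FGF9 replicate 3, 2 of the 52 were at least 1 lower, HSPA6 and DNAJB4, beside 2.64% of all genes.

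Among the J-domain proteins, co-chaperones that bring clients to HSP70, 5 of 10 were called lower in HG than in NG, and 7 of 10 in si-FGF9. In those comparisons 22.7% and 42.2% of all genes were called lower, which is the background for each list that follows, and 434 and 1701 of 14191 genes were after GC correction. With the correction 2 and 3 of the 10 J-domain genes stayed called lower. DNAJB4 fell from 64.0, 53.5 and 51.0 TPM in NG to 6.83, 2.81 and 20.8 TPM in HG and 7.54, 9.46 and 2.69 TPM in si-FGF9. Its log2 fold changes were −2.72 and −3.04. GC correction left −1.65 (adjusted p = 0.00814) and −1.53 (adjusted p = 0.00456), still called. DNAJB14 had the next largest change in HG, from 16.0, 13.4 and 15.1 TPM in NG to 6.32, 1.87 and 5.61 TPM, a log2 fold change of −1.61, and GC correction ended its call (−0.51). In si-FGF9 the next was DNAJB6, a suppressor of protein aggregation, which fell from 230.3 to 252 TPM in NG to 48.0 to 172 TPM in HG and 38.4 to 54.4 TPM in si-FGF9. Its log2 fold changes were −1.48 and −2.39, and −1.39 and −2.03 after GC correction, all called. The third that stayed called in si-FGF9 was DNAJB5 (−1.61 and −1.28).

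The other HSP70 and HSP110 genes had 2 of 6 called lower in HG than in NG, HSPA4L (−1.93) and HSPA13 (−1.91), and 4 of 6 in si-FGF9, led by HSPA13 (−2.83) and HSPA4L (−2.53). After GC correction both calls in HG were lost, HSPA13 in si-FGF9 was the 1 lower call left (−1.22), and HSPA4 was called higher there (1.78). Of 7 exchange and partner factors of HSP70, 3 were called lower in HG than in NG, among them BAG5 (−1.30) and ST13 (−1.28). In si-FGF9 4 were called lower, led by BAG5 (−2.22) and ST13 (−2.06), and STUB1, a ubiquitin ligase that acts on HSP70 clients, was called higher (1.26). None of the calls of this list remained after GC correction, where STUB1 was 0.95 and BAG5 and ST13 in si-FGF9 were −0.88 (adjusted p = 0.000125) and −0.63 (adjusted p = 0.001), while BAG1 was then called higher there (1.24).

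Of the 10 co-chaperones of HSP90, 2 were called lower in HG than in NG, CHORDC1 (−1.63) and PPID (−1.38), and 4 in si-FGF9, led by PPID (−3.03) and CHORDC1 (−2.86). After GC correction the calls in HG were lost (−0.51 for CHORDC1 and −0.53 for PPID). In si-FGF9 PPID (−1.69) and CHORDC1 (−1.25) then stayed called lower, and SUGT1 was called higher (1.34). CRYAB, the small heat shock protein alpha B-crystallin, was called higher in si-FGF9, where it was at 709.9, 634 and 377 TPM against 141, 152 and 168 TPM in NG. Its log2 fold change was 1.85 ± 0.36 (SE, adjusted p = 0.000674), and 2.29 after GC correction. HSPB8 of the same list was called lower there (−1.23), but not after GC correction (−0.79).

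The chaperonin TRiC, a folding chamber for actin and tubulin, had 0 of 8 subunits called by limma in HG versus NG. Of the 8, only TCP1, CCT5 and CCT8 had an adjusted p under 0.05 there (0.0368, 0.043 and 0.00779). This cut was met by 49.0% of all genes in that comparison. In si-FGF9 3 of 8 subunits were called lower than in NG, led by CCT8 (−1.32) and CCT5 (−1.28). After GC correction these were −0.05 and −0.19, and CCT4 was called higher (1.68). Of the 6 mitochondrial chaperones 1 was called lower in each of these comparisons, HSPA9 in HG (−1.03) and HSPD1 in si-FGF9 (−1.52), and neither after GC correction, where CLPB was called higher in both (1.13 and 1.45). HSF2, a relative of HSF1, was called lower in both (−1.50 and −2.04), and after GC correction it was −0.50 in both and not called.

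**Figure D4:**
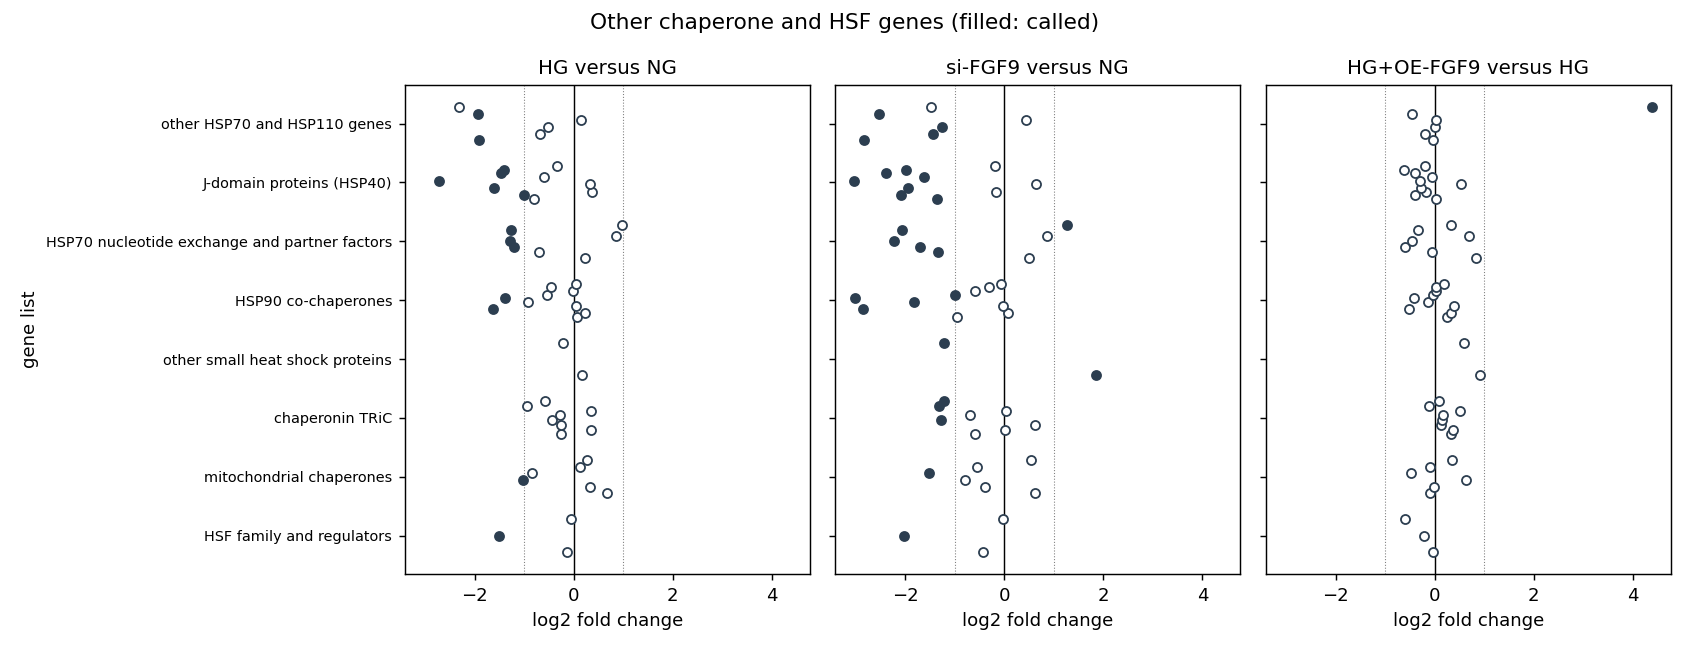
Log2 fold change of 52 genes of the chaperone network by list in the 3 comparisons, as deposited, with filled points for called genes and dotted lines at −1 and 1. Most filled points of the first and second panels are below 0, and the 1 filled point of the last panel is HSPA6 at 4.39.

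The genes nearest in pattern to HSF1, HSPA1A and HSPA8 were found among 6042 genes with a mean of at least 10 TPM, from the root mean square difference of their centred log2(TPM + 1) over the 12 libraries. For HSPA1A they were HOTAIRM1 (0.345), H2AC25 (0.360) and PPP1R15A (0.388), the last a stress-induced regulator of the translation factor eIF2. Among the 10 genes themselves DNAJB1 was nearer to HSPA1A (0.298) and HSPA1B was at 0.404. For HSPA8 they were MRPL1 (0.258), PSMD1 (0.292) and HLA-B (0.297). For HSF1, whose own SD over the libraries was small, they were PXDC1 (0.0823), UPF1 (0.0846) and TMED1 (0.088). The libraries share their groups and their dependence on GC content, so these distances are a description without a test.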

How the data were processed

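RNA of HK2 cells was measured in 12 libraries, grouped by the labels. The authors deposited TPM for each gene, given to 2 decimals and scaled to 1000000 per library, so the depth is unknown and no count test or counting interval could be made. The submitters' processing notes name Bowtie 0.12.2 and the mouse build mm8, with no role, while the identifiers are human; the counting tool and annotation are not given in the sources used here. TPM were tested with limma 3.58.1 (R 4.3.3) on log2(TPM + 1), with a variance trend, for 14639 genes with at least 1 TPM in 3 or more libraries and all 12 libraries in 1 fit. Benjamini-Hochberg adjustment ran over all of them. With 3 libraries against 3, an exact permutation test of 1 gene cannot go below p = 0.1. Fold changes on this scale understate the change of low genes.

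GC content, positions and shared windows came from the longest GENCODE release 29 transcript (GRCh38), available for 96.9% of the genes tested, and the correction subtracted a natural spline with 5 degrees of freedom from each library. The members and lists were chosen with earlier results of these data known. Named genes were the 10 members, FGF9, at most the 2 largest called changes per list and comparison, the 3 nearest patterns, and HSPA6 in full, DNAJB5, HSPA4, STUB1, BAG1, SUGT1, CCT4, CLPB, HSPB8 and PTPRC, LUM and other markers chosen after their values were seen. Of the 55 genes listed, 54 were matched and 52 tested. The marker genes were looked at as levels only. The alternatives were other filters, pseudocounts, scalings, call rules, designs and left-out libraries. The fit and the GC correction were tested on simulated data.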

Additional observations from a re-analysis of the deposited data

How the results depend on the processing

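The depth is unknown, so counting error could not be separated from the spread between libraries. Of 600 results for the 10 genes under an alternative, 534 kept direction and side of the threshold, 20 became weaker, 20 stronger and 26 changed sign. Weaker here means a lost call, so the 20 come only from the 1, 4 and 0 members called in the 3 comparisons. The 534 are mostly results of genes that were not called, and do not measure how stable the calls are. The cause of a change was not tested where no value is named for it.

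Members called in HG versus NG (1 in the report) were 2 at p under 0.05, 4 at an adjusted p under 0.05 without a fold minimum, 0 with the GC correction, with GC and length and with GC and the replicate block, and 0 to 3 with single libraries left out. For si-FGF9 versus NG (4) they were 2 with median-of-ratios scaling, with GC and length and with GC and the replicate block. For HG+OE-FGF9 versus HG (0) they stayed 0 with single libraries left out. Leaving out HG replicate 3 and si-FGF9 replicate 3 together, chosen after seeing the data, gave 5, 5 and 3.

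Of the 52 network genes, HG versus NG (14) called 9 in a fit of its 6 libraries and with median-of-ratios scaling, 25 at an adjusted p under 0.05, 3 under each GC setting and 8 to 19 with single libraries left out. For si-FGF9 versus NG (27) the count was 12 with the GC correction, with or without the block, and 10 with GC and length. For HG+OE-FGF9 versus HG (1) it was 0 with at least 1 TPM required in all 12 libraries, which removes HSPA6, 3 at an adjusted p under 0.05, 1 to 3 with single libraries left out and 2 without both libraries named above.

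Signs that changed in HG versus NG were those of HSPA8 (0.10 with median-of-ratios scaling, 0.055 with GC, also with the block, and 0.016 with GC and length), HSPH1 (0.060 with GC and length) and HSF1 (−0.18 with GC, also with the block, and −0.0100 with GC and length). In si-FGF9 versus NG they were HSPA1B (0.55) and HSF1 (0.50) with median-of-ratios scaling, HSF1 with quantile normalization (0.15), and HSPH1 (0.53 with median-of-ratios scaling, 1.06 with GC, also with the block, and 1.23 with GC and length). Single libraries left out gave −0.28 to 0.75 for HSPA1A, −0.96 to 0.42 for HSPA1B and −0.012 to 0.58 for HSPA8 in si-FGF9 versus NG. In HG+OE-FGF9 versus HG they gave −0.22 to 1.62 for HSPA1B, −0.22 to 1.08 for DNAJB1 and −0.87 to 0.20 for HSPH1. Without both libraries HSPA1B was 0.42 in si-FGF9 versus NG and HSPH1 0.20 in HG+OE-FGF9 versus HG.

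The replicate block alone left the counts of members called at 1, 4 and 0 and those of network genes at 14, 27 and 1. Replicate numbers did not pair the libraries: correlations of same-numbered deviations were 0.075, 0.089 and −0.16 in HG and NG, 0.075, −0.044 and 0.17 in si-FGF9 and NG, and −0.14, 0.25 and 0.19 in HG+OE-FGF9 and HG.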
